A study of Mus musculus with 12 samples.

Results

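The genes of oxidative phosphorylation were followed across 12 libraries of mouse colon tumour RNA, for the subunits encoded in the nucleus and for the RNAs encoded in mitochondria. Members were taken by gene symbol alone: the Nduf genes of the families a, b, c, s and v, Sdha to Sdhd, and every symbol beginning with Uqcr, Cox4 to Cox8, Atp5 or mt-. The rule found 123 of the 21792 genes in the table. Of these, 32 are mitochondrially encoded, namely 13 protein genes, 2 ribosomal RNAs and 17 transfer RNAs (tRNAs). These 17 are the mitochondrial tRNAs with a symbol in the table and not the full set of the genome. The other 91 members are nuclear, namely 74 structural subunits, 9 assembly factors, 5 paralogues of complex IV subunits with tissue-restricted expression, 2 pseudogenes and Atp5s, a coupling factor linked to complex V. All 123 had a mean value of at least 1 and were tested, among 21322 genes in all.

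The tumours were induced in FvB mice with azoxymethane (AOM), a carcinogen of the colon, injected into the abdomen at 10 mg/kg once a week for 6 weeks, and the experiment ended 16 weeks after the first dose. There were 4 groups of 3 libraries, called 1, 2 and 3: wt, tumours deficient for miR-34a, tumours deficient for p53, and tumours deficient for both (double deficient), with the deletions labelled as limited to IEC, taken here as intestinal epithelial cells. All groups share the strain and the AOM treatment, and the driver of the deletions is not given in the sources used here. Sex is not among the sample labels used here, and whether it differs between groups was not tested. Other cells of a tumour keep both genes, and whether replicates are separate animals is not stated, so p-values measure only the spread between these samples. In bulk tumour RNA, fewer cells of a type and less RNA per cell cannot be told apart.

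Oxidative phosphorylation makes ATP in mitochondria. Complex I (NADH dehydrogenase), complex II (succinate dehydrogenase), complex III (cytochrome bc1) and complex IV (cytochrome c oxidase) pass electrons to oxygen, and complex V (ATP synthase) uses the proton gradient that complexes I, III and IV build. All these complexes except complex II combine proteins from both genomes. Mitochondrial DNA is transcribed into long precursor RNAs from which tRNAs are cut out, and the cuts release most of the flanking messenger and ribosomal RNAs. p53 is known to act on mitochondrial metabolism through nuclear target genes such as Sco2, a complex IV assembly factor, and miR-34a is itself a transcriptional target of p53.

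The values are normalized by a step that is not given in the sources used here and rounded to whole numbers, so they are not read counts and the depth of each library is unknown. Median-of-ratios factors between libraries lay between 0.975 and 1.06. The p53 labels were checked on Trp53. It stood at 3466 to 5120 in wt and miR-34a deficient libraries and at 401 to 924 in p53 and double deficient libraries. Trp53 does not tell wt from miR-34a deficient or p53 from double deficient libraries, so the miR-34a labels were not checked by it. A code in the library names, which the labels do not explain, differed in miR-34a deficient 1 and p53 deficient 1 from the other 10 libraries. The deviations of libraries from their group means spanned 7 dimensions where 8 were free, and 47.2% of the squared weight of the missing direction lay on double deficient 3. Whether the spread of that group is understated was not tested. Markers of other cell types also moved with genotype. The summed level of 5 of 5 goblet cell markers was 259502 to 341050 in wt, 29009 to 516821 in miR-34a deficient, 22689 to 122096 in p53 deficient and 5973 to 43228 in double deficient libraries. The sum of 5 of 5 markers of mature colonocytes was 12790 to 15208, 8423 to 13768, 4056 to 10691 and 3499 to 6477 in the same order, with Aqp8 at 0 in 1 library. Erythroid markers (3 of 5 measured) summed to 168 to 717, 399 to 702, 787 to 13202 and 1854 to 14173, so that both p53 deleted groups lay above the other libraries. Endothelial markers (3 of 3) summed to 356 to 681, 774 to 989, 535 to 840 and 845 to 1512. Epithelial markers were present in every library (5 of 5 measured, summed level 368633 to 645001). The part of these differences in the results below was not tested.

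Among the 32 mitochondrial RNAs, those of 3 adjacent tRNA genes stood furthest from wt in double deficient tumours. The tRNAs for isoleucine (mt-Ti), glutamine (mt-Tq) and methionine (mt-Tm) lie side by side on the mitochondrial chromosome between the complex I genes mt-Nd1 and mt-Nd2, at chrM:3706-3913 in GRCm38 (GENCODE M21). mt-Ti and mt-Tm are on the plus strand and mt-Tq is on the minus strand. The DNA sequences of these tRNA genes are shown. The levels of mt-Tm and mt-Tq carry the calls described next, and mt-Ti, which did not pass, lies beside mt-Tq. Capitals mark the anticodon, which reads the codon on the messenger RNA.
mt-Ti (chrM:3706-3774, plus strand, 69 bases): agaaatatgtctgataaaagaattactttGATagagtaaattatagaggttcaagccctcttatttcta
mt-Tq (chrM:3772-3842, minus strand, 71 bases): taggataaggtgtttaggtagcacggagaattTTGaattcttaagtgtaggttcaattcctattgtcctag
mt-Tm (chrM:3845-3913, plus strand, 69 bases): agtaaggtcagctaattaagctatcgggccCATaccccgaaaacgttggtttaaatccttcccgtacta

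mt-Tm, the tRNA that carries methionine for initiation and elongation in mitochondria, stood at 114, 152 and 189 in wt, 119, 251 and 184 in miR-34a deficient, 71, 59 and 86 in p53 deficient and 17, 38 and 25 in double deficient tumours. All 3 double deficient libraries lay below all other 9, and all 3 p53 deficient libraries lay below all wt and miR-34a deficient ones. On the log2(value + 1) scale, mt-Tm in double deficient tumours fell by 2.51 ± 0.37 (SE) from wt, which is 5.68 times (limma adjusted p = 0.0156). It fell by 2.75 ± 0.37 against miR-34a deficient tumours (limma adjusted p = 0.00873). Against p53 deficient tumours the difference was -1.45 ± 0.37 (limma adjusted p = 0.109), which did not pass. The p53 deficient tumours differed from wt by -1.05 ± 0.37 (limma adjusted p = 0.222), which did not pass either. With 16 added to the values in place of 1, the difference of double deficient tumours from wt was smaller, at -1.98. The call against wt was lost, with limma adjusted p up to 0.0932, without wt 3, double deficient 1 or double deficient 3 and when only the groups compared were fitted; without double deficient 3 the call against miR-34a deficient tumours was lost too (0.0551).

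mt-Tq, the glutamine tRNA, stood at 94, 61 and 109 in wt, 29, 117 and 74 in miR-34a deficient, 28, 44 and 31 in p53 deficient and 15, 13 and 12 in double deficient tumours. The double deficient libraries were the 3 lowest, and the wt and p53 deficient libraries did not overlap. mt-Tq in double deficient tumours fell by 2.60 ± 0.46 from wt, which is 6.06 times (limma adjusted p = 0.0323). The difference from miR-34a deficient tumours was -2.17 ± 0.46 (limma adjusted p = 0.0582), and that of p53 deficient tumours from wt was -1.32 ± 0.46 (limma adjusted p = 0.220). With 16 added to the values in place of 1, the difference of double deficient tumours from wt was smaller, at -1.80. The call against wt did not pass without wt 1 or 3 or without any of the 3 double deficient libraries, nor with the replicate number as a block (0.0565), nor with the missing direction (0.0708) or the level of Y-linked genes (0.0794) as a covariate.

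mt-Ti, the isoleucine tRNA, stood at 85, 49 and 96 in wt, 30, 88 and 62 in miR-34a deficient, 25, 50 and 36 in p53 deficient and 17, 14 and 17 in double deficient tumours. It was again lowest in the 3 double deficient libraries, while the p53 deficient libraries overlapped those of wt and of miR-34a deficient tumours. Its difference in double deficient tumours against wt was -2.14 ± 0.44 (limma adjusted p = 0.0522), and -1.50 with 16 added in place of 1. mt-Ti and mt-Tq were lowest within their own groups in the 2 libraries with the other library-name code, miR-34a deficient 1 and p53 deficient 1. Without those libraries the limma adjusted p in double deficient tumours against wt was 0.0494 for mt-Ti and 0.0208 for mt-Tq. The wt and double deficient libraries all carry the same code.

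The genes on either side of the cluster differed less from wt, by -0.74 ± 0.34 for mt-Nd1 (limma adjusted p = 0.330) and by -0.94 ± 0.30 for mt-Nd2 (limma adjusted p = 0.173) in double deficient tumours. The value of mt-Tm per 1000 of mt-Nd1 in the same library was 0.732, 1.08 and 1.08 in wt, 1.12, 1.35 and 1.13 in miR-34a deficient, 0.693, 0.844 and 0.404 in p53 deficient and 0.181, 0.470 and 0.230 in double deficient tumours. On this ratio the double deficient libraries stayed below those of wt and of miR-34a deficient tumours, and they overlapped those of p53 deficient tumours. The difference between the tRNAs and their neighbours was not itself tested. mt-Ti overlaps mt-Nd1 by 2 bases and, on the opposite strand, mt-Tq by 3 bases, and strandedness is not given in the sources used here. Whether the values count mature tRNAs or longer precursors that contain them cannot be told apart.

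**Figure D1:**
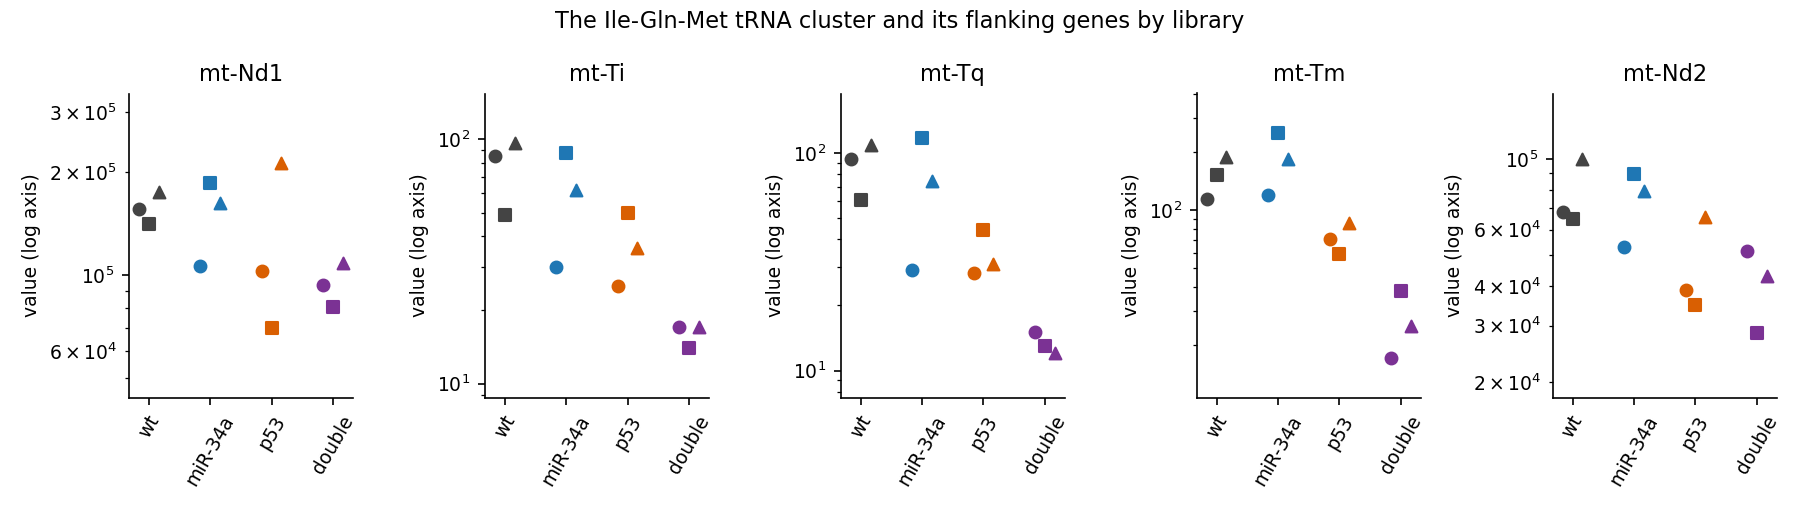
Values of mt-Ti, mt-Tq and mt-Tm and of the flanking genes mt-Nd1 and mt-Nd2 in each library, in the order of the mitochondrial genome, on log axes that differ between panels (circle, square and triangle are replicates 1, 2 and 3). In each tRNA panel the 3 double deficient libraries lie below the other 9, for mt-Tq at 12 to 15 against 28 to 117.

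The other 14 mitochondrial tRNAs had a median log2 difference from wt of -0.71 in double deficient tumours, against -2.51 for the cluster of 3. The cluster was grouped after these values were seen and holds the 3 lowest, so that gap follows from the choice. All 17 tRNAs lay below wt in double deficient tumours, and 14 of 17 did in p53 deficient tumours (median -0.40). That last median rested on p53 deficient 2 and became -0.00 without it, with 9 of 17 below wt. Over all genes tested the medians were -0.04 in p53 deficient and 0.02 in double deficient tumours. The glycine tRNA mt-Tg, between mt-Co3 and mt-Nd3, is given here after its values were seen. It stood at 109, 90 and 144 in wt, 99, 145 and 127 in miR-34a deficient, 59, 37 and 71 in p53 deficient and 64, 34 and 46 in double deficient tumours. Both p53 deleted groups lay below all wt and miR-34a deficient libraries. The differences from wt were -1.05 ± 0.34 (limma adjusted p = 0.197) and -1.25 ± 0.34 (limma adjusted p = 0.126) in p53 and double deficient tumours, and neither passed.

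The RNAs of the mitochondrial ribosome varied widely between libraries. mt-Rnr2, the large one, stood at 29816, 21999 and 45210 in wt, 20183, 79464 and 40292 in miR-34a deficient, 26971, 14804 and 30442 in p53 deficient and 16192, 10305 and 10416 in double deficient tumours. The double deficient libraries lay below every wt library but overlapped the p53 deficient ones. The difference from wt was -1.36 ± 0.45 (limma adjusted p = 0.185), and that of mt-Rnr1, the small one, was -1.16 ± 0.56 (limma adjusted p = 0.357). Ribosomal RNA levels also depend on any depletion step in library preparation, which is not given in the sources used here.

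**Figure D2:**
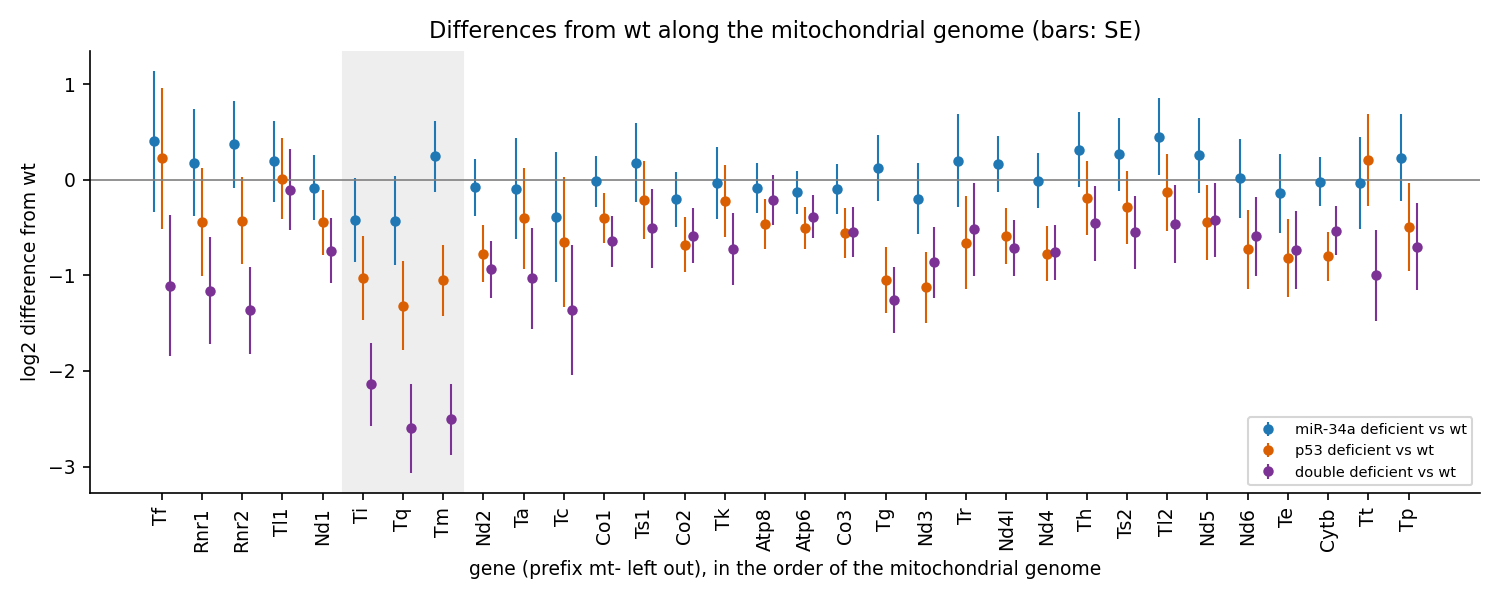
Log2 difference from wt of the 32 mitochondrial genes in the table, in the order in which they lie on the mitochondrial genome (bars are SE, 3 libraries per group). The shaded cluster of mt-Ti, mt-Tq and mt-Tm reaches -2.14 to -2.60 in double deficient tumours, further from wt than any other gene shown.

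The 13 mitochondrially encoded protein genes were lower on average in the p53 deleted groups, and none passed the test. Their mean log2 level was 16.41 ± 0.31 (SD, n = 3) in wt, 16.37 ± 0.30 in miR-34a deficient, 15.77 ± 0.56 in p53 deficient and 15.80 ± 0.28 in double deficient tumours. By library it was 16.35, 16.13 and 16.74 in wt, 16.05, 16.65 and 16.40 in miR-34a deficient, 15.68, 15.26 and 16.36 in p53 deficient and 16.01, 15.48 and 15.91 in double deficient tumours. The double deficient libraries all lay below the wt libraries and below those of miR-34a deficient tumours, whereas p53 deficient 3 lay within the wt range. The median log2 difference from wt over these genes was -0.59 in p53 deficient and -0.59 in double deficient tumours, and all 13 lay below 0 in each; after quantile normalization the medians were -0.49 and -0.21, with 12 and 10 of 13 below 0. Without p53 deficient 2 the first median was -0.41, and without p53 deficient 3 it was -0.89. In miR-34a deficient tumours the median was -0.08, with 10 of 13 below 0. These comparisons share the wt libraries.

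In p53 deficient tumours 0 of 123 members passed the limma test against wt, where 0.0234% of all genes did. At unadjusted p under 0.05, 12 members (9.76%) were lower and 5 (4.07%) higher, against 8.62% and 6.69% of all genes, so the members' shares were near or below the background. Of the 13 mitochondrial protein genes, 6 were among the 12, and 2 of them (mt-Cytb and mt-Nd3) had groups that did not overlap, as 9.27% of all genes had in the lower and 6.91% in the higher direction. In double deficient tumours 2 of 123 members passed against wt, both of them tRNAs of the cluster, where 0.802% of all genes passed. At unadjusted p under 0.05, 12 members (9.76%) were lower and 4 (3.25%) higher, against 8.08% and 7.19% of all genes. Here 8 of the 13 mitochondrial protein genes had no overlap with wt in the lower direction, as 10.1% of all genes had, and 0 in the higher direction, as 9.76% of all genes had. RNAs of a single precursor are not independent, so this count is not one of 8 separate events.

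Complex I holds 7 of the mitochondrial protein genes. mt-Nd2 stood at 67983, 64856 and 100172 in wt, 52796, 89400 and 79444 in miR-34a deficient, 38724, 34839 and 65726 in p53 deficient and 51538, 28525 and 42815 in double deficient tumours. The double deficient libraries lay below all wt libraries, and p53 deficient 3 overlapped wt. mt-Nd3, a core membrane subunit, stood at 8596, 6414 and 10807 in wt, 6733, 8141 and 7179 in miR-34a deficient, 4823, 1927 and 6173 in p53 deficient and 6025, 3440 and 4807 in double deficient tumours. Neither p53 deleted group overlapped wt, and the differences were -1.13 ± 0.37 (limma adjusted p = 0.198) in p53 deficient and -0.86 ± 0.37 (limma adjusted p = 0.302) in double deficient tumours. mt-Nd1, mt-Nd4 and mt-Nd4l lay between -0.77 and -0.44 in both groups. mt-Nd5 lay at -0.44 and -0.42. mt-Nd6, the protein gene on the other strand, lay at -0.72 in p53 deficient and -0.59 in double deficient tumours. mt-Nd4 and mt-Nd4l overlap by 7 bases, and mt-Nd5 and mt-Nd6 by 14 bases on opposite strands, so reads at those ends could count for either gene.

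Complex III has a single mitochondrial gene, mt-Cytb, which encodes cytochrome b. It stood at 200253, 177951 and 248318 in wt, 152612, 267624 and 208637 in miR-34a deficient, 101744, 96515 and 170495 in p53 deficient and 156505, 122112 and 153427 in double deficient tumours. All 6 libraries of the p53 deleted groups lay below all wt libraries. The difference from wt was -0.80 ± 0.25 in p53 deficient tumours (limma adjusted p = 0.183) and -0.53 ± 0.25 in double deficient tumours (limma adjusted p = 0.350), the latter becoming 0.01 after quantile normalization.

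Complex IV takes its catalytic core from mt-Co1, mt-Co2 and mt-Co3. mt-Co1, which binds the haem groups at which oxygen is reduced, stood at 513091, 446124 and 650371 in wt, 378288, 717014 and 531969 in miR-34a deficient, 326853, 349169 and 569406 in p53 deficient and 364797, 294262 and 365328 in double deficient tumours. The double deficient libraries lay below wt and the p53 deficient ones overlapped it. The differences from wt were -0.40 ± 0.27 and -0.64 ± 0.27 in p53 and double deficient tumours (limma adjusted p = 0.502 and 0.279), and the first turned to 0.31 after quantile normalization. mt-Co2 lay at -0.68 and -0.58 and mt-Co3 at -0.55 and -0.54 in the same comparisons, with mt-Co3 in double deficient tumours at 0.08 after quantile normalization. In complex V, mt-Atp6, part of the proton channel, lay at -0.50 and -0.38. mt-Atp8, which overlaps mt-Atp6 by 43 bases, lay at -0.46 and -0.21. The double deficient values of these ATP synthase genes did not keep their sign under every alternative, with 0.05 for mt-Atp6 after quantile normalization and 0.01 for mt-Atp8 when the level of Y-linked genes was a covariate. Nuclear copies of mitochondrial DNA can share reads with all 32 mitochondrial genes, and how the authors' counting treated them is not given in the sources used here.

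Group means of the nuclear subunits differed less from one another. Over the 70 nuclear subunits of the complexes that combine both genomes (I, III, IV and V), the mean log2 level was 12.15 ± 0.27 (SD, n = 3) in wt, 12.03 ± 0.13 in miR-34a deficient, 12.18 ± 0.13 in p53 deficient and 12.17 ± 0.20 in double deficient tumours. The group means thus lay within 1 SD of wt. The library wt 1 stood apart at 12.47, with 12.01 and 11.99 in wt 2 and 3, and it held the highest value of the 12 libraries for 40 of all 74 nuclear subunits. p53 deficient 2 was highest for 18, and double deficient 2 for 9. Double deficient 1 was lowest for 20 and miR-34a deficient 1 for 13. Among the 13 mitochondrial genes the order was another one: wt 3 was highest for 8 and miR-34a deficient 2 for 4, while p53 deficient 2 was lowest for 8 and double deficient 2 for 4.

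The mean log2 level of the mitochondrial protein genes minus that of the nuclear subunits was 3.88, 4.12 and 4.76 in wt, 4.15, 4.48 and 4.39 in miR-34a deficient, 3.62, 2.95 and 4.20 in p53 deficient and 4.06, 3.14 and 3.68 in double deficient tumours. The 2 p53 deleted groups held the 4 lowest of the 12 values, and each also held a library within the wt range. The group means were 4.25 ± 0.45, 4.34 ± 0.17, 3.59 ± 0.62 and 3.63 ± 0.46 in the same order. The p53 deleted groups differed from wt by -0.66 and -0.63. The SD within groups was 0.46 when pooled over the 4 groups and 0.62 in p53 deficient tumours. No test was made of this score because the genes were chosen with results known.

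**Figure D3:**
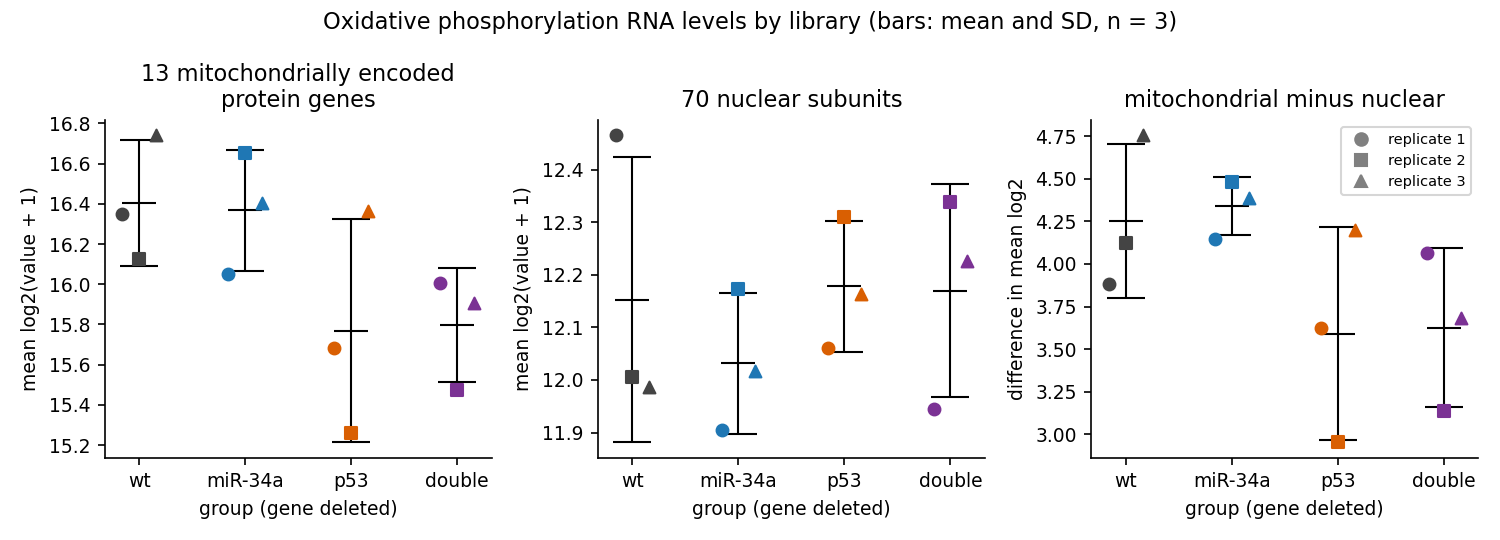
Mean log2(value + 1) of the 13 mitochondrial protein genes (left), of the 70 nuclear subunits of complexes I, III, IV and V (middle) and the difference between them (right) in each library, with the mean and SD of each group of 3. The left panel runs from 15.26 to 16.74 and the middle panel from 11.90 to 12.47, with wt 1 at the top of the nuclear values.

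The same difference was taken within each complex. In complex I it was 4.12 ± 0.53 in wt, 4.24 ± 0.11 in miR-34a deficient, 3.41 ± 0.76 in p53 deficient and 3.36 ± 0.56 in double deficient tumours. In complex III it was 5.09 ± 0.42, 5.16 ± 0.31, 4.16 ± 0.49 and 4.53 ± 0.40. In complex IV it was 5.10 ± 0.37, 5.15 ± 0.22, 4.63 ± 0.56 and 4.68 ± 0.39. In complex V it was 3.28 ± 0.34, 3.31 ± 0.22, 2.74 ± 0.43 and 2.90 ± 0.30. In each of these complexes both p53 deleted groups had lower means than both groups that keep p53, and the gap from wt to the p53 deficient mean ran from 0.47 in complex IV to 0.93 in complex III. No test was made of these differences either.

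**Figure D4:**
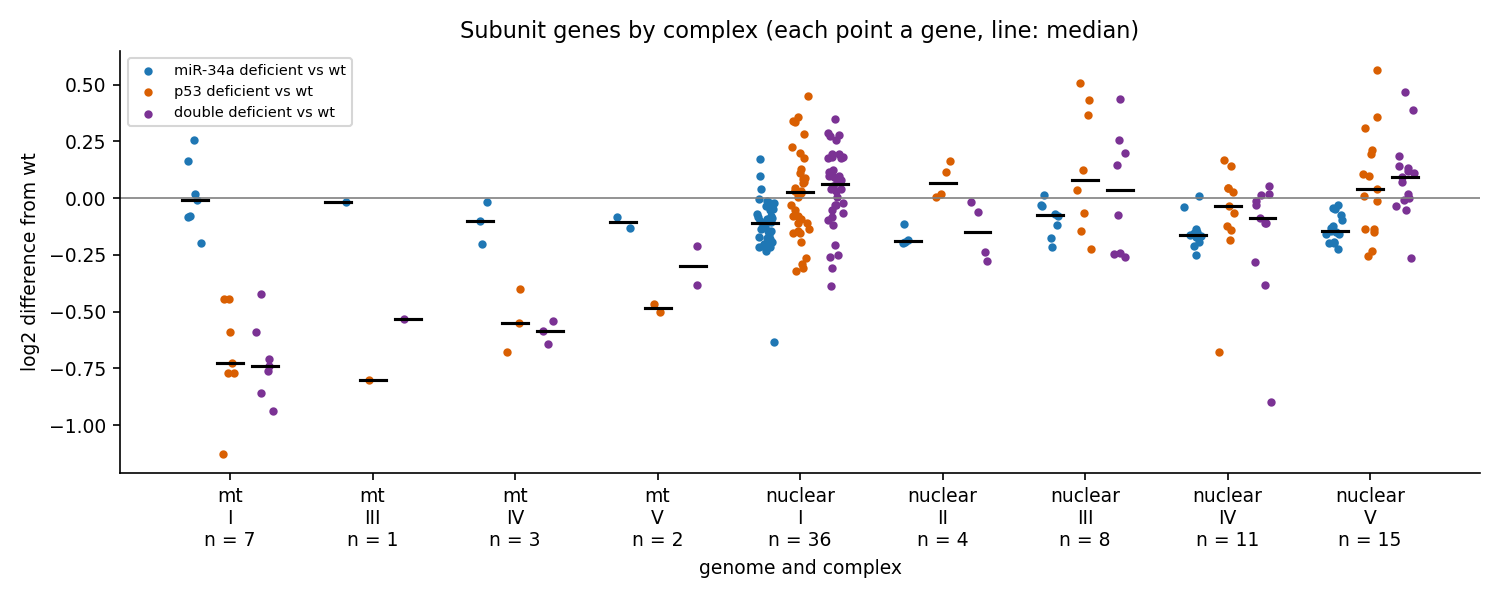
Log2 difference from wt of each subunit gene by genome and complex, with the median of each set as a line. The mitochondrial genes lie below 0 in p53 and double deficient tumours, all 13 in each, and the nuclear genes of complexes I, III, IV and V spread on both sides of it. The 4 genes of complex II all lie above 0 in p53 deficient and below 0 in double deficient tumours.

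By complex, the median log2 difference of the nuclear subunits from wt was 0.03 (complex I, 36 genes), 0.07 (II, 4 genes), 0.08 (III, 8 genes), -0.04 (IV, 11 genes) and 0.04 (V, 15 genes) in p53 deficient tumours. In double deficient tumours it was 0.06, -0.15, 0.04, -0.09 and 0.09. Across all 74 the medians were 0.03 and 0.02, close to those of all genes. Both sign and size depended on single libraries: without wt 1 both medians were 0.18, and without wt 2 they were -0.07 and -0.05. In miR-34a deficient tumours 69 of 74 lay below wt with a median of -0.14, where the median of all genes was 0.03, but without wt 1 the median was 0.01 and 30 of 74 lay below. 1 member reached unadjusted p under 0.05 in that comparison, as 6.09% of all genes did, and 0 passed with adjustment, as 0.0375% of all genes did.

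That member was Ndufs5, an accessory subunit of complex I (chromosome 4, GRCm38). It stood at 1837, 1266 and 1242 in wt, 932, 1126 and 733 in miR-34a deficient, 1438, 1450 and 1295 in p53 deficient and 1349, 1896 and 1459 in double deficient tumours. The miR-34a deficient libraries were the 3 lowest of all 12. The difference from wt was -0.64 ± 0.21 (limma adjusted p = 0.733), and double deficient tumours differed from miR-34a deficient ones by 0.76 ± 0.21 (limma adjusted p = 0.101). Ndufs1, the iron-sulfur subunit of the NADH module, stood at 6431, 6004 and 5877 in wt against 7059, 6852 and 7069 in p53 deficient tumours, which did not overlap (0.20 ± 0.15, limma adjusted p = 0.561). Ndufv3, an accessory subunit of that module, differed by 0.45 ± 0.19 in p53 deficient tumours (limma adjusted p = 0.286) with overlapping groups.

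Complex II is encoded by the nucleus alone. The values of Sdha, its flavoprotein, ranged from 13006 to 22354 over the 12 libraries, and its differences from wt, all ± 0.17, were -0.11 in miR-34a deficient tumours, 0.16 in those without p53 and -0.24 in double deficient ones. The highest was p53 deficient 2 and the lowest double deficient 3. Sdhb, the iron-sulfur subunit, differed by -0.28 ± 0.17 in double deficient tumours (limma adjusted p = 0.489). Sdhc, a membrane anchor, differed by -0.20 ± 0.16 in miR-34a deficient tumours (limma adjusted p = 0.924).

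Among the nuclear genes of complex III, Uqcrc1, a core protein, stood at 11370, 7604 and 5867 in wt, 7960, 8349 and 7845 in miR-34a deficient, 9917, 13388 and 10947 in p53 deficient and 9323, 11764 and 11495 in double deficient tumours. Its groups overlapped because wt 1 was as high as the p53 deleted groups. The differences from wt were 0.51 ± 0.21 in p53 deficient (limma adjusted p = 0.289) and 0.44 ± 0.21 in double deficient tumours (limma adjusted p = 0.357). Uqcrb differed by -0.21 ± 0.17 in miR-34a deficient tumours (limma adjusted p = 0.926). In complex V, Atp5g1, which encodes the proton-carrying ring subunit c, stood at 4398, 2668 and 2505 in wt against 3478, 5561 and 4915 in p53 deficient tumours. wt 1 again lay inside the other group's range, and the difference was 0.56 ± 0.24 (limma adjusted p = 0.301). Its paralogues Atp5g2 and Atp5g3 encode the same mature protein, and many nuclear subunits have processed pseudogenes, so reads could be shared between such copies.

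Cox7c, a small structural subunit of complex IV (chromosome 13), was singled out after its values were seen, as the nuclear subunit with the lowest log2 difference in both p53 deleted groups. It stood at 1754, 1140 and 1515 in wt, 1021, 1680 and 1044 in miR-34a deficient, 822, 960 and 940 in p53 deficient and 633, 955 and 774 in double deficient tumours. Every library of the p53 deleted groups lay below every library of the other groups. The differences from wt were -0.68 ± 0.24 in p53 deficient (limma adjusted p = 0.218) and -0.90 ± 0.24 in double deficient tumours (limma adjusted p = 0.113), and neither passed in any of 24 alternatives.

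Several complex IV subunits have paralogues that replace them in particular tissues, and Ndufa4l2 is a paralogue of Ndufa4 known as a target of the hypoxia-inducible factor. Ndufa4l2 (chromosome 10) stood at 1, 5 and 0 in wt, 3, 2 and 8 in miR-34a deficient, 4, 12 and 14 in p53 deficient and 14, 12 and 21 in double deficient tumours. The double deficient libraries lay above all wt and miR-34a deficient libraries, at values near the bottom of the table. On the log2(value + 1) scale the differences from wt were 2.83 ± 0.69 in double deficient (limma adjusted p = 0.0878) and 2.11 ± 0.69 in p53 deficient tumours (limma adjusted p = 0.192), and with 16 added in place of 1 the first was 0.81. Ndufa4 itself ranged from 17061 to 29272 with differences from wt between -0.17 and -0.03. Cox7a1, the heart and muscle form of Cox7a, stood at 402, 166 and 192 in wt, 227, 237 and 140 in miR-34a deficient, 124, 85 and 89 in p53 deficient and 60, 290 and 131 in double deficient tumours. The p53 deficient libraries lay below those of wt (-1.25 ± 0.52, limma adjusted p = 0.287), while double deficient tumours overlapped wt. Skeletal muscle markers (4 of 6 measured, with Tnnt3 at 0 in some libraries) summed to 97 to 157 in wt, 70 to 206 in miR-34a deficient, 40 to 109 in p53 deficient and 95 to 136 in double deficient libraries. Smooth muscle markers (5 of 5) summed to 763 to 920, 816 to 1700, 845 to 1340 and 959 to 1765 in the same order. The part of muscle cells in the Cox7a1 values was not tested. Its counterpart Cox7a2 differed from wt by -0.14 to 0.05.

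The remaining paralogues were low, and each deleted group overlapped wt. In p53 against miR-34a deficient tumours 3 of the 5 paralogues, Cox7a1 among them, were lower without overlap. The same held for 3540 of all 21322 genes. Cox4i2, the lung form induced in hypoxia, ranged from 10 to 26, while Cox4i1 ranged from 12284 to 25548. Cox6b2, the testis form, ranged from 13 to 95 and Cox6b1 from 6402 to 10945. Cox7b2 ranged from 1 to 6 and Cox7b from 3641 to 6205. Cox6a1 and Cox8a differed from wt by at most 0.17, and their muscle forms Cox6a2 and Cox8b were not analysed here. The pseudogene Atp5l2-ps stood at 11, 4 and 3 in wt and 1, 6 and 0 in miR-34a deficient tumours (-1.37 ± 0.77, limma adjusted p = 0.897).

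**Figure D5:**
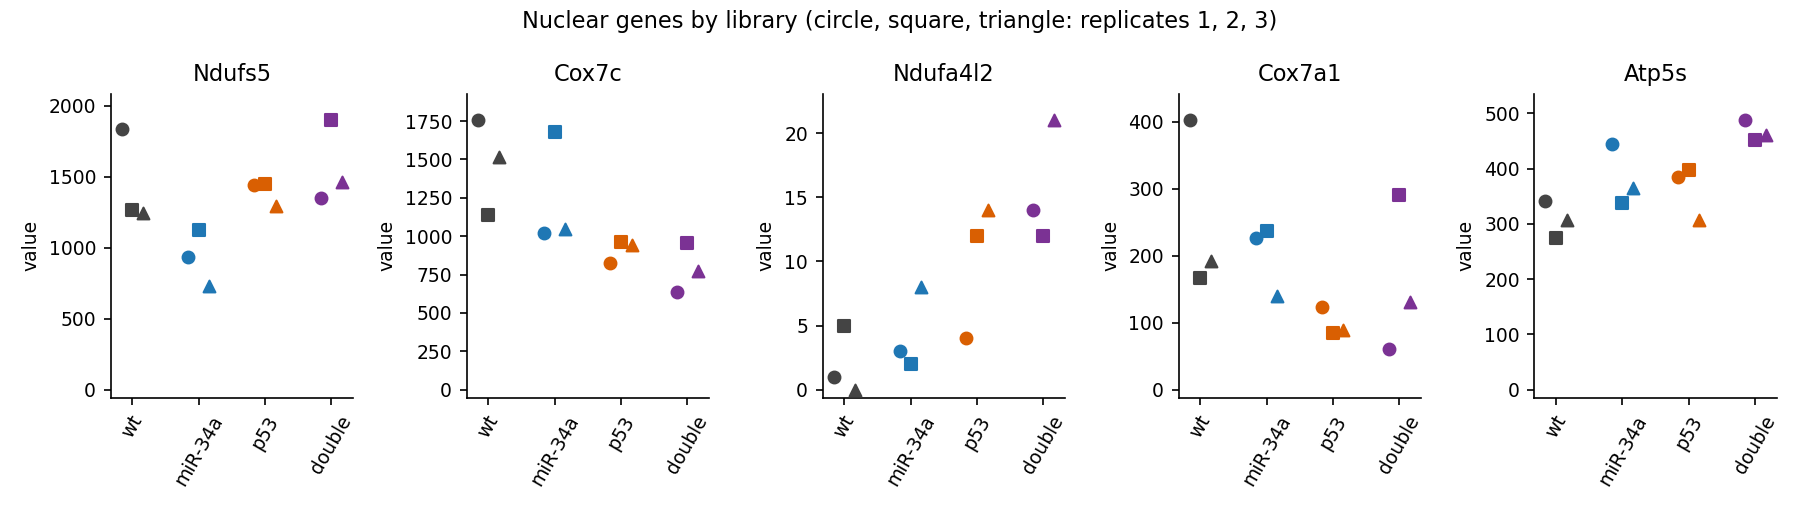
Values of Ndufs5, Cox7c, Ndufa4l2, Cox7a1 and Atp5s in each library on linear axes that differ between panels. Ndufs5 is lowest in the 3 miR-34a deficient libraries (733 to 1126), Cox7c is below 1000 in all 6 libraries of the p53 deleted groups, and Atp5s is highest in the 3 double deficient libraries (451 to 487).

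Assembly factors build the complexes without staying in them, and of the 9 among the members 0 passed in any of the 7 comparisons. Ndufaf3, needed for early complex I assembly, stood at 750, 559 and 530 in wt against 875, 784 and 843 in double deficient tumours, which did not overlap (0.46 ± 0.16, limma adjusted p = 0.213). Cox7a2l, which helps complexes III and IV join in supercomplexes, stood at 6376, 4574 and 5842 in wt against 5244, 2882 and 4152 in double deficient tumours, which overlapped (-0.48 ± 0.21, limma adjusted p = 0.302). Atp5s stood at 342, 275 and 306 in wt, 444, 337 and 364 in miR-34a deficient, 384, 397 and 307 in p53 deficient and 487, 451 and 460 in double deficient tumours. Its double deficient libraries were the 3 highest of the 12, and the difference from wt was 0.60 ± 0.18 (limma adjusted p = 0.157).

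The comparisons between the deleted groups added little to the calls. In double against p53 deficient tumours 0 of 123 members passed, as 0.605% of all genes did, and 8 (6.50%) were at unadjusted p under 0.05, against 15.1% of all genes. Of these 8, 4 were tRNAs, namely mt-Tm, mt-Tq, mt-Ti and mt-Tt, all lower in double deficient tumours. The 13 mitochondrial protein genes had a median of 0.02 in this comparison, with 9 of 13 above 0 and 0 at unadjusted p under 0.05. In double against miR-34a deficient tumours mt-Tm alone passed, where 0.905% of all genes did, and 17 members (13.8%) were at unadjusted p under 0.05, against 18.0% of all genes. In p53 against miR-34a deficient tumours 0 members passed, as 3.39% of all genes did, and 20 (16.3%) were at unadjusted p under 0.05, against 23.0%. The 13 mitochondrial protein genes lay below 0 there (median -0.69, all 13) and 57 of 74 nuclear subunits lay above it (median 0.16), with a median over all genes of -0.10 that became 0.04 after quantile normalization. For the interaction of the deletions 0 members passed, as 0.0234% of all genes did, and 2 (1.63%) were at unadjusted p under 0.05, against 7.89%. These were mt-Tm (-1.70 ± 0.53, limma adjusted p = 0.485) and Ndufs5 (0.79 ± 0.30, limma adjusted p = 0.559), so a difference of the miR-34a deletion with and without p53 was not detectable here.

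Nuclear subunit genes share known promoter factors, among them NRF1 and the ETS family (which includes NRF2). The promoters in RefSeq (GRCm38.p6, 250 bases before to 50 after the start) were matched for 62 of the 74 nuclear subunits and searched on both strands. The NRF1 motif, the 10 capitals in the Atp5k and Cox6a1 lines, reads the same on both strands and was present in 5 of 62 (8.06%), against 0.977% of 27025 promoters. The ETS motif CCGGAAG was present in 15 (24.2%), against 9.12%, and the YY1 motif AAGATGGC in 8 (12.9%), against 2.88%. Any of the 3 was in 26 (41.9%), against 12.3%, and matches of different motifs overlapped in 0 of the 62. The background is all promoters, whether or not their genes are expressed in these tumours. A match is a run of letters and not a bound site. Whether subunits with and without a match differ in level was not tested. Windows of 60 bases upstream of the start are shown for an ATP synthase subunit, a cytochrome oxidase subunit and a succinate dehydrogenase subunit, one gene each, on the strand of the gene; capitals mark the motif (CTTCCGG is CCGGAAG on the other strand).
Atp5k, NRF1 (chr5:108434415-108434474, minus strand, 50 bases before the start): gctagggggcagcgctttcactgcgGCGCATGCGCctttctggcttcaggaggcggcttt
Cox6a1, NRF1 (chr5:115349086-115349145, minus strand, 162 bases before the start): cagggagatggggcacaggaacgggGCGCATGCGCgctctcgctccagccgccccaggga
Sdhd, ETS (chr9:50603861-50603920, minus strand, 46 bases before the start): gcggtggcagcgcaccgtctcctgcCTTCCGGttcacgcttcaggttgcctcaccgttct
The 3 genes differed little from wt, by -0.19 to -0.04 for Atp5k, -0.09 to 0.17 for Cox6a1 and -0.19 to 0.12 for Sdhd over the 3 deleted groups. Their values were 1962 to 3085, 6146 to 15220 and 6325 to 11015 over the 12 libraries.

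Other genes of the pathway and of mitochondrial gene expression were read from 14 lists chosen with earlier results of these data known. Among 18 genes that maintain and transcribe mitochondrial DNA the median difference from wt was -0.15 in p53 deficient and -0.02 in double deficient tumours, and 0 passed. Mterf1b, a copy of the gene of a mitochondrial transcription terminator, stood at 211, 200 and 204 in wt, 163, 198 and 173 in miR-34a deficient, 95, 98 and 89 in p53 deficient and 145, 120 and 122 in double deficient tumours. The p53 deficient libraries were the 3 lowest. Mterf1b fell by 0.91 ± 0.20 in p53 against miR-34a deficient tumours (limma adjusted p = 0.0375). How that call fares under the alternatives is not given here. Over all genes 722 passed in that comparison, and 37 when only the groups compared were fitted. The difference of Mterf1b from wt in p53 deficient tumours was -1.12 ± 0.20 (limma adjusted p = 0.0880), and reads could be shared with its near-identical copy. Among 18 genes of mitochondrial RNA stability and processing the median was 0.19 in both groups. Elac2, which cuts tRNAs out of the precursor at their 3′ end, stood at 1024, 846 and 781 in wt, 959, 760 and 1088 in miR-34a deficient, 1708, 1207 and 1633 in p53 deficient and 1185, 1605 and 1605 in double deficient tumours. Both p53 deleted groups lay above all other libraries, with differences from wt of 0.77 ± 0.20 (limma adjusted p = 0.136) and 0.72 ± 0.20 (limma adjusted p = 0.131).

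Of 77 mitochondrial ribosomal protein genes, 61 lay above wt in double deficient tumours (median 0.21), where 10993 of all 21322 genes did (median 0.02). In miR-34a deficient tumours 66 of the 77 lay below wt (median -0.10). How far these counts rest on wt 1 was not tested. In double deficient tumours against wt 1 of the 77 passed, in the lower direction, where 0.802% of all genes passed in either direction. Mrps6, a protein of the small subunit, stood at 6294, 5471 and 4364 in wt, 4887, 6977 and 6882 in miR-34a deficient, 3833, 3906 and 4176 in p53 deficient and 2691, 2516 and 2638 in double deficient tumours. It was lowest in the double deficient libraries and next lowest in the p53 deficient ones, with no overlap between these groups and the rest. In double deficient tumours Mrps6 fell by 1.02 ± 0.17 from wt (limma adjusted p = 0.0225). From miR-34a deficient tumours it fell by 1.24 ± 0.17 (limma adjusted p = 0.00873). The call against wt passed in 16 of 24 alternatives.

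Among 21 factors of complex IV the median was -0.02 in p53 and 0.06 in double deficient tumours. Cox10, which makes the haem of complex IV, stood at 572, 446 and 518 in wt and 957, 995 and 890 in p53 deficient tumours, which did not overlap (0.89 ± 0.20, limma adjusted p = 0.104). None of the assembly genes listed for complex I (9 measured), II (4), III (7) or V (6) passed against wt. The 13 regulators of mitochondrial biogenesis had medians of 0.03 in miR-34a deficient tumours, 0.11 in those without p53 and -0.02 in double deficient ones, and the 21 electron carriers and ADP exchange genes had medians of -0.10, 0.12 and 0.06 in that order, again with 0 passing. Of 18 genes of the TCA cycle, 17 lay above wt in p53 deficient tumours (median 0.25, against -0.04 over all genes). 6 of the 18 were higher at unadjusted p under 0.05, as 6.69% of all genes were. Of 16 genes of the mitochondrial stress response 14 lay above wt there (median 0.88), 10 of the 16 at unadjusted p under 0.05 (6.69% of all genes), against a median of 0.22 in double deficient tumours. Shmt2, a mitochondrial enzyme of one-carbon metabolism from that list, differed by 1.07 ± 0.23 in p53 deficient tumours from wt (limma adjusted p = 0.0982). It rose by 1.07 ± 0.23 from miR-34a deficient tumours (limma adjusted p = 0.0350), a call whose alternatives are not given here. Shmt2 stood at 1688, 2089 and 2148 in wt and 2886, 5978 and 4062 in p53 deficient tumours. Like Chac1, Trib3, Asns and Hspa9 of the same list, it was highest in p53 deficient 2. Trib3 stood at 182, 1724 and 342 in p53 deficient tumours. How far the median of the list rests on p53 deficient 2 was not tested.

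Glycolysis is the other main source of ATP. All 20 genes of glycolysis and lactate export lay above wt in p53 deficient tumours (median 0.52) and 19 of 20 in double deficient tumours (median 0.53), against -0.04 and 0.02 over all genes. At unadjusted p under 0.05, 11 of 20 were higher in each comparison, as 6.69% and 7.19% of all genes were, and 1 was lower in double deficient tumours (8.08% of all genes). 0 passed in the first comparison and 2 in the second, where 0.0234% and 0.802% of all genes passed. Slc16a3, a lactate exporter, stood at 1371, 2212 and 1048 in wt, 1069, 971 and 1223 in miR-34a deficient, 1784, 1850 and 5007 in p53 deficient and 4370, 5973 and 7788 in double deficient tumours. Its double deficient libraries lay above all wt and miR-34a deficient ones. Slc16a3 rose by 2.0 ± 0.39 against wt (limma adjusted p = 0.0458), a call that passed in 10 of 24 alternatives. Eno1, the enolase gene near the miR-34a locus, rose in double deficient tumours against wt by 1.11 ± 0.13 (limma adjusted p = 0.00337) and in miR-34a deficient tumours by 0.93 ± 0.13 (limma adjusted p = 0.0468). The second call passed in 1 of 24 alternatives, and reads of Eno1 can be shared with its near-identical copy. Of 14 p53 targets tied to mitochondria, Sesn2, a stress-induced sestrin, stood at 1704, 2779 and 1604 in wt, 2000, 2873 and 2290 in miR-34a deficient, 936, 1285 and 1006 in p53 deficient and 866, 781 and 701 in double deficient tumours. Both p53 deleted groups lay below the other libraries, and Sesn2 in double deficient tumours fell by 1.33 ± 0.23 from wt (limma adjusted p = 0.0258, passing in 16 of 24 alternatives). The list as a whole had medians of 0.06 and -0.07 in p53 and double deficient tumours.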

How the data were processed

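Total RNA of 12 colon tumours was isolated with a QIAGEN RNAeasy kit and made into libraries by standard Illumina protocols, per the labels. The authors deposited score values, that is, whole numbers per gene symbol that were normalized by a step not given in the sources used here. In the submitters' processing notes the build is mm10. The sources used here name no aligner, counting tool, annotation or strandedness. The design allowed for counts or normalized values, and the values were treated as normalized. Upper quartiles lay between 1905 and 1982.25 in all libraries. 0 value columns were left without a sample. Depth is unknown, so no counting intervals are given.

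Values were taken as log2(value + 1) without rescaling. limma 3.58.1 (R 4.3.3) was fitted to genes whose mean was 1 or more (moderated test, intensity trend, 1 mean per group, 12 libraries, 8 residual degrees of freedom). A gene passes at a Benjamini-Hochberg adjusted p under 0.05 over all 21322 genes tested in a comparison. There were 7 comparisons, which share libraries. The fit was also run on simulated data with independent noise in each gene and library. No direction of spread was missing there, so that run cannot show whether calls in double deficient tumours hold. Levels over sets of genes are described without a test. Positions and tRNA sequences are from GENCODE M21 (GRCm38), which held 121 of the 123 symbols. Summaries were made in Python 3.11.15 with pandas 2.3.3.

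The members and gene lists were chosen with earlier results of these data known. The text names every mitochondrial protein gene and ribosomal RNA, members that passed, the member with the smallest p per complex and comparison with wt, the 3 largest non-overlapping changes in each direction with a mean value of at least 50, the complex IV paralogue pairs, and from the lists the genes that passed against wt and the gene of smallest p, the latter printed for some lists only; 1 member that the rule names is not reported here. Other genes were named after their values were seen: mt-Tg, Cox7c, Cox7a2l, Atp5k, Sdhd, Chac1, Trib3, Asns, Hspa9 and the members listed for comparisons between deleted groups. The grouping of mt-Ti, mt-Tq and mt-Tm as a cluster was also made after their values were seen. The alternatives were 3 rescalings (median-of-ratios, upper quartile, quantile), another pseudocount (16), no filter or a mean of at least 50, only the groups compared and a replicate block. Others took the library-name code, the Y-linked level or the missing direction as a covariate. The rest left out each library or both libraries of the other code.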

Additional observations from a re-analysis of the deposited data

How the results depend on the processing

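The number of members that passed in double deficient tumours against wt was 2. It was 1 when only the groups compared were fitted, 1 with a covariate for either the missing direction or the level of Y-linked genes, and between 0 and 3 when single libraries were left out. It was 3, with mt-Ti added, after median-of-ratios scaling (mt-Ti limma adjusted p = 0.0487). The same 3 passed with a covariate for the library-name code (0.0311) and without the 2 libraries of the other code (0.0494). With a replicate block the number of members that passed was 1. The replicate numbers do not pair the samples by the labels. A correlation above 0.1 was found in 4 of 18 pairs that share a number, and for 5 of 12 libraries the nearest one carried that number. Against miR-34a deficient tumours the number was 1. It was 2 with the library-name code as a covariate, 2 without the 2 libraries of the other code, and between 0 and 3 when single libraries were left out. In the other 5 comparisons 0 members passed under every alternative run. The causes were not tested. Over all genes, 722 passed in p53 against miR-34a deficient tumours, and 27 after adjustment for the level of Y-linked genes. For double against p53 deficient tumours the numbers were 129 and 7, and for double deficient tumours against wt 171 and 80. A covariate for the missing direction gave 147, 47 and 57 in the same order. The mt-Tm difference of double deficient tumours from wt was -2.25 after the Y-linked adjustment, in place of -2.51. Over 62 gene results and 1482 values under alternatives, 1405 kept their direction and side of the threshold, 66 lost a call, 6 gained it and 5 changed sign. The sign changes were mt-Atp6 (0.048), mt-Co3 (0.082) and mt-Cytb (0.011) in double deficient and mt-Co1 (0.31) in p53 deficient tumours after quantile normalization, and mt-Atp8 (0.014) in double deficient tumours when the Y-linked level was a covariate. With 3 libraries per group, unknown depth and a missing direction of spread, differences of the size of the mitochondrial protein genes were not resolved here.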
